A study of Gossypium hirsutum with 24 samples.

Results

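Expansins and xyloglucan-modifying enzymes, proteins that loosen and remodel the plant cell wall, were followed in cotton leaves during feeding by larvae of the cotton bollworm (CBW), Helicoverpa armigera. A probe set, the group of short DNA probes that reads a transcript on the array, was included if the word expansin or xyloglucan stood in its protein name in a shortened copy of the study's table of changed genes. This gave 16 of the 23972 probe sets of the array, 6 for expansins and 10 for xyloglucan enzymes, and none was removed for standing in the study's hormone, transcription factor, stress or secondary metabolite lists. The study matched them to 10 genes of Gossypium raimondii, a cotton species of the D genome, and 3 of these genes are expansins. The copy holds 1028 rows, and in each of them all 3 CBW arrays at 48 h lay above all 3 controls. Rows of the table beyond these were not used here, so expansin and xyloglucan probe sets named further down, any with lower levels at 48 h among them, are not included. The probe sets were thus chosen by name among rows selected on the 48 h difference, which is described without a test. The comparisons at 6, 12 and 24 h are tested, but the spread in these tests is pooled over all arrays. The 48 h arrays that selected the rows are among them, so the tests are not free of the choice. Calls lost without those arrays are given below.

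The primary wall of a plant cell is a network of cellulose microfibrils coated and bridged by xyloglucan, set in a gel of pectin. Expansins loosen this network at low pH without cutting it. Xyloglucan endotransglucosylase/hydrolases (XTHs) cut xyloglucan chains and join the ends to other chains, or release them by hydrolysis, and both families are best known from growing tissue, where the wall has to yield and be rebuilt.

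The series compared leaves of Gossypium hirsutum cv. CCRI12 fed upon by CBW larvae with leaves of undamaged plants kept under the same conditions, 6, 12, 24 and 48 h after feeding began. Each of the 8 groups has 3 arrays, 24 in all, and each array stands for leaves pooled from 3 plants of a pot. Whole leaves were used, so a change in RNA per cell and a change in the share of a cell type cannot be told apart. The values are MAS5 signal intensities on a linear scale. At a given time the 6 arrays either all hold a value for a probe set or all lack it. An intensity is compared here only between arrays, never between probe sets, because probe sets differ in how brightly they bind.

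Median intensity lay between 358 and 399 on the 24 arrays, and arrays of the same group correlated at 0.931 to 0.995. CBW 48 h replicate 3 lay between the other 2 arrays of its group in 60% of probe sets, against 13.9 to 45.1% for the other arrays. Control 48 h replicate 2 had the lowest of these shares. Whether CBW 48 h replicate 3 is a hybridisation of its own was not tested, and it enters the spread pooled over the groups. In an alternative chosen after seeing the data that kept this array out of that spread, both called changes of Ghi.1127.1.S1_at between 6 and 24 h described below were lost (adjusted p = 0.0523 for each, limma) and no other call at 6, 12 or 24 h, or between these times, changed. The single leaf mesophyll marker named in the copy, chlorophyll A-B binding protein GraAffx.27643.2.A1_s_at, was measured on every array, from 78.3 to 899.9. It was called higher at 6 and 24 h and not at 12 h (log2 differences of 0.60, 2.45 and -0.19), with 1.95 at 48 h, and its part in the results below was not tested. Like all rows of the copy it was kept for a rise at 48 h, so it cannot stand for mesophyll genes at large. The paper reports that nearly all photosynthesis genes it found changed were down-regulated. The 2 probe sets found by a seed storage name belong to a superfamily that also holds lipid-transfer proteins, Ghi.6429.1.S1_at and Ghi.10830.1.A1_at, and both were called higher at 12 and 24 h.

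CBW feeding was accompanied by higher levels of most of these transcripts from the first time sampled. At 6 h, 11 of the 13 measured probe sets were higher (limma on log2 intensities, Benjamini-Hochberg adjusted p of 0.05 or less over all probe sets with values at that time), and none was lower. The same call was made for 26.1% of all 14627 probe sets tested and for 83.3% of the other rows of the copied table, which were kept for the same rise at 48 h. At 12 h, 10 of 13 were higher, against 19.9% of all probe sets and 75.3% of the other rows. At 24 h, 7 of 11 were higher, against 20% of all probe sets and 93.5% of the other rows. The 16 expansin and xyloglucan probe sets match 10 genes, so these counts take some genes more than once. Lower calls made up 36.5%, 24.7% and 29.3% of all probe sets at these times, and none fell on the measured expansin and xyloglucan probe sets. The share called higher was thus near that of the other rows at 6 and 12 h and below it at 24 h. Some calls at 6 and 12 h were lost with low values raised to the 20th percentile of their array, as given below. The share of the other rows was not computed in that setting.

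The median log2 difference of the measured probe sets, CBW minus control, was 3.03, 1.81, 1.71 and 3.00 at 6, 12, 24 and 48 h. Over all probe sets the medians were -0.13, -0.04, -0.08 and 0.0035, and over the other rows of the copied table they were 2.09, 1.62, 2.15 and 2.25. All 3 CBW arrays lay above all 3 control arrays for 9, 10 and 6 probe sets at 6, 12 and 24 h, where 28%, 23.5% and 23.6% of all probe sets and 85.4%, 77.4% and 93.8% of the other rows showed this. With 3 arrays against 3, an exact permutation test cannot give a 2-sided p below 0.1, so the p-values come from limma, which pools the spread over the 8 groups and across probe sets. At 48 h all 16 stood above the controls without overlap, as their choice required, against 31.1% of all probe sets without overlap and 22.4% called higher at that time, and their median stayed between 2.95 and 3.05 with any single array left out.

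**Figure D1:**
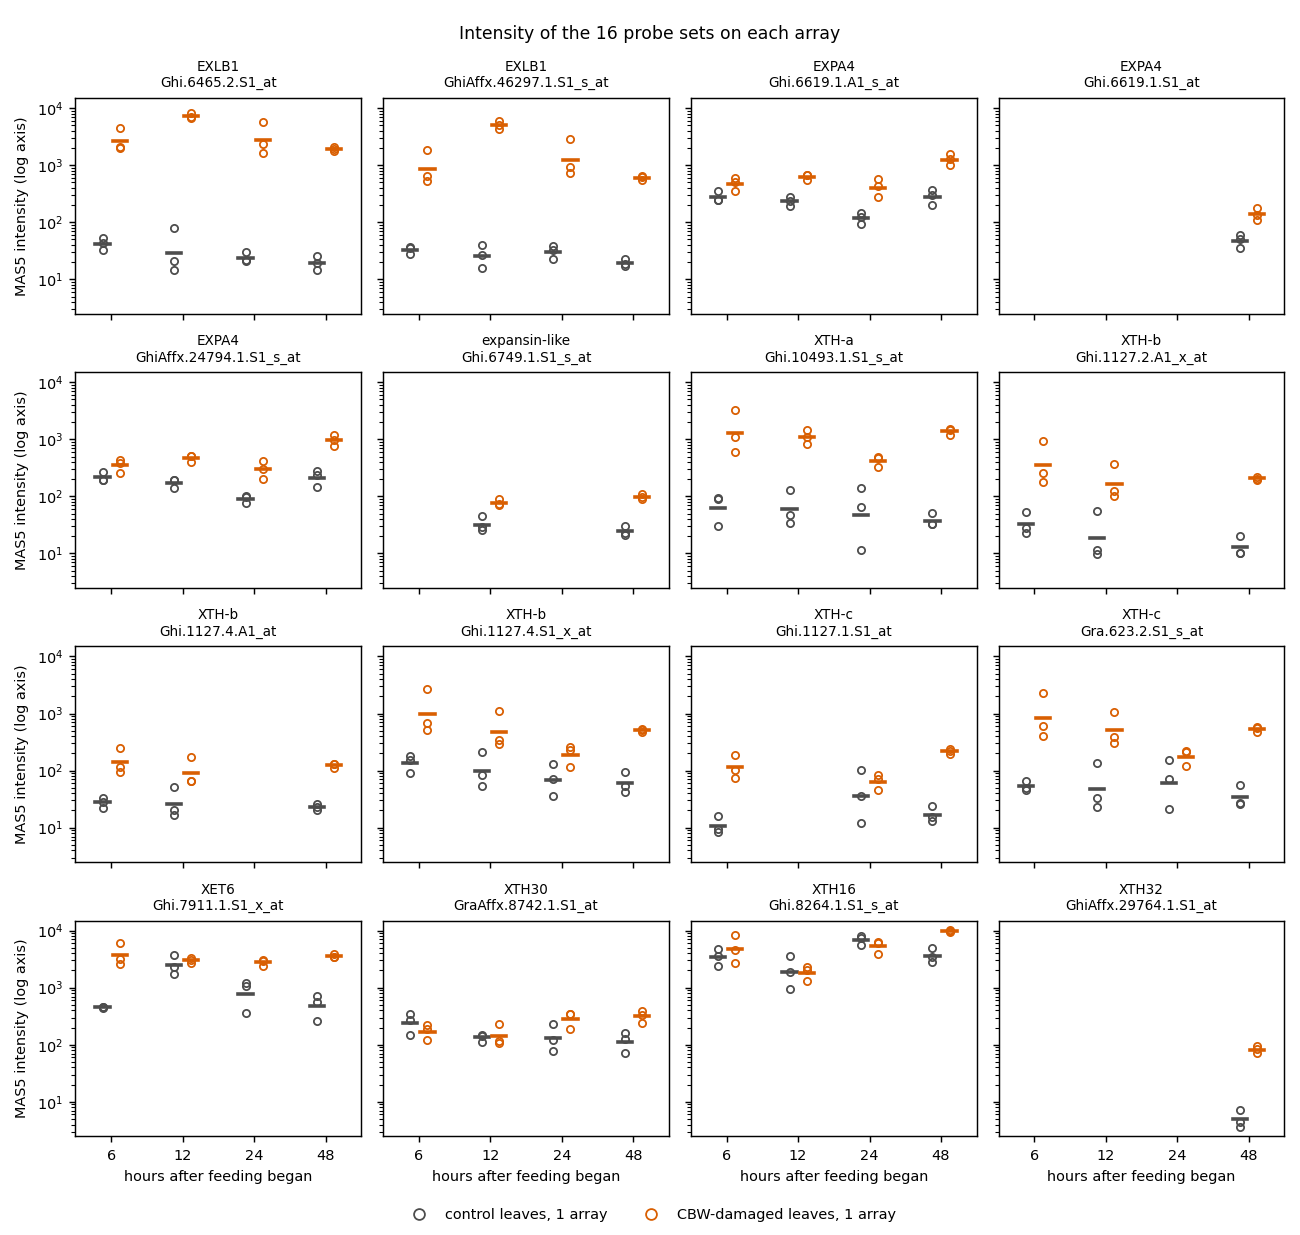
MAS5 intensity (log axis) of each of the 16 probe sets against hours after feeding began; circles are single arrays of control (grey) and CBW-damaged (orange) leaves, and bars are geometric means. EXLB1 controls stay between 14.6 and 80.8 for Ghi.6465.2.S1_at while its CBW arrays lie between 1641 and 8176, and empty positions are times without values.

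Expansin-like B1 (EXLB1, matched to Gorai.004G192500.1) is a member of a small group of expansin relatives whose wall-loosening activity is not established. Its probe set Ghi.6465.2.S1_at had the largest difference of the measured probe sets at each of the 4 times. It had intensities of 32.1, 52.4 and 43.9 in control leaves at 6 h and of 2054, 4550 and 2029 in CBW-damaged leaves. At 12 h the controls had 80.8, 14.7 and 21.2 and the damaged leaves 6787, 7011 and 8176. At 24 h the controls had 21.9, 30.0 and 21.1 and the damaged leaves 5663, 1641 and 2397. Damaged and control arrays were far apart at every time, and among these 3 times the damaged arrays were most alike at 12 h and most scattered at 24 h. The log2 differences were 5.99, 7.96 and 6.87 at 6, 12 and 24 h (standard error, SE, 0.50; adjusted p = 1.46e-08, 1.76e-09 and 9.57e-09 from limma). At 48 h the controls had 25.9, 14.6 and 19.6 and the damaged leaves 1794, 2055 and 1919, a log2 difference of 6.62.

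The second EXLB1 probe set, GhiAffx.46297.1.S1_s_at, gave the same order of times. Its controls had 36.5, 36.1 and 27.8 at 6 h, and its damaged leaves had 538, 1860 and 651. At 12 h the values were 39.8, 16.1 and 26.2 in controls and 5130, 4346 and 5939 in damaged leaves. At 24 h they were 38.7, 22.4 and 32.3 in controls and 2820, 727 and 925 in damaged leaves. No damaged array came near a control array, and the peak stood again at 12 h. Its log2 differences were 4.71, 7.64 and 5.35 at 6, 12 and 24 h (SE 0.45, adjusted p = 7.96e-08, 1.2e-09 and 4.02e-08 from limma), and 4.98 at 48 h.

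All EXLB1 control values lay below the 20th percentile of their array, which was 106 to 121. With every value under that percentile raised to it, the differences of Ghi.6465.2.S1_at became 4.55, 5.98 and 4.56 and those of GhiAffx.46297.1.S1_s_at 2.93, 5.47 and 3.37 at 6, 12 and 24 h, and every call stood. Ghi.6465.2.S1_at kept the largest difference at each time in this setting, with 4.02 at 48 h. The size of the difference depended on this setting, while the damaged leaves lay above the percentile on every array.

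The EXLB1 response was larger at 12 h than at 6 h by 1.97 on the log2 scale for Ghi.6465.2.S1_at (SE 0.70, adjusted p = 0.0402 from limma) and by 2.93 for GhiAffx.46297.1.S1_s_at (SE 0.63, adjusted p = 0.00223). Such an increase in response was called for 17.7% of all probe sets and 14.1% of the other rows of the copied table. The call of GhiAffx.46297.1.S1_s_at held when any single array was left out. That of Ghi.6465.2.S1_at was lost in 9 of 12 such fits, with adjusted p between 0.0554 and 0.109, and held only without control 6 h replicate 1, CBW 6 h replicate 2 or control 12 h replicate 1. From 12 to 24 h the response of GhiAffx.46297.1.S1_s_at was smaller by 2.29 (SE 0.63, adjusted p = 0.0252), where 6.19% of all probe sets and 6.2% of the other rows had such a call, and Ghi.6465.2.S1_at had -1.09 (SE 0.70, adjusted p = 0.339), or -1.82 without control 12 h replicate 1 (adjusted p = 0.0483). The call of GhiAffx.46297.1.S1_s_at was lost without control 12 h replicate 2, CBW 12 h replicate 3, control 24 h replicate 1 or 3, or CBW 24 h replicate 2 or 3, with adjusted p between 0.0505 and 0.0694. Without the 48 h arrays in the fit, the 12 h against 6 h call of Ghi.6465.2.S1_at (adjusted p = 0.0709) and the 24 h against 12 h call of GhiAffx.46297.1.S1_s_at (adjusted p = 0.0582) were lost as well.

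Alpha-expansin A4 (EXPA4, matched to Gorai.013G022200.1) belongs to the family shown in other plants to loosen walls under acid conditions. It rose by far less than EXLB1 and from controls that lay mostly above the 20th percentile. For Ghi.6619.1.A1_s_at the controls had 247, 246 and 356 at 6 h and the damaged leaves 509, 595 and 348. The lowest damaged array, replicate 3, fell just under the highest control array, so the groups overlapped at this time. At 12 h the controls had 235, 280 and 192 and the damaged leaves 663, 540 and 678. At 24 h the controls had 123, 94.2 and 144 and the damaged leaves 576, 275 and 424, and at 12 and 24 h the groups did not overlap. This gave log2 differences of 0.76, 1.42 and 1.78 (SE 0.28, adjusted p = 0.0256, 0.000486 and 4.82e-05 from limma).

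The other EXPA4 probe set with values at every time, GhiAffx.24794.1.S1_s_at, had controls of 193, 195 and 263 and damaged leaves of 384, 436 and 258 at 6 h, again with CBW 6 h replicate 3 the low one. It had 196, 195 and 140 against 505, 396 and 504 at 12 h. At 24 h it had 96.2, 77.8 and 101 against 424, 202 and 308. Its log2 differences were 0.71, 1.41 and 1.71 at these times (SE 0.27, adjusted p = 0.0316, 0.000387 and 5.19e-05). All 3 of its controls at 24 h lay below the 20th percentile. With values raised to it, the differences of GhiAffx.24794.1.S1_s_at were 1.41 at 12 h and 1.32 at 24 h, and that of Ghi.6619.1.A1_s_at at 24 h was 1.65. These calls stood. Both 6 h calls rest on few arrays, since leaving out control 6 h replicate 1 or 2 or CBW 6 h replicate 1 or 2 raised the adjusted p to between 0.0675 and 0.115 for Ghi.6619.1.A1_s_at and between 0.0855 and 0.133 for GhiAffx.24794.1.S1_s_at.

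At 48 h EXPA4 had log2 differences of 2.17 for Ghi.6619.1.A1_s_at, where controls had 298, 374 and 197 and damaged leaves 999, 1572 and 1259, and 2.20 for GhiAffx.24794.1.S1_s_at. The third probe set, Ghi.6619.1.S1_at, had values at 48 h alone, with 50.4, 60.8 and 34.9 in controls and 107, 181 and 136 in damaged leaves, a log2 difference of 1.54. All 3 of its controls and 1 damaged array lay below the 20th percentile, and the difference was 0.27 with values raised to it. The 3 probe sets read the same gene, and 2 of them carry the suffix s_at, which Affymetrix gives to probe sets that match several transcripts, so they are not independent measurements.

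In undamaged leaves EXPA4 declined over the first day. Ghi.6619.1.A1_s_at was lower at 24 h than at 12 h by 0.97 (SE 0.28, adjusted p = 0.0108 from limma) and than at 6 h by 1.23 (adjusted p = 0.00446), and GhiAffx.24794.1.S1_s_at by 0.94 (adjusted p = 0.0111) and 1.24 (adjusted p = 0.00345). Such falls between 12 and 24 h and between 6 and 24 h were called for 18.4% and 10.3% of all probe sets. The call for Ghi.6619.1.A1_s_at between 12 and 24 h was lost without control 24 h replicate 2 (adjusted p = 0.0531), and that of GhiAffx.24794.1.S1_s_at was lost with low values raised to the 20th percentile. In damaged leaves the level at 24 h differed from that at 6 h by -0.22 and -0.23, with 95% confidence intervals from -0.81 to 0.38 for Ghi.6619.1.A1_s_at and from -0.81 to 0.34 for GhiAffx.24794.1.S1_s_at. The difference between 24 and 6 h in the response to feeding was 1.01 and 1.00 and did not pass the test (adjusted p = 0.0823 and 0.0776). It passed for both probe sets without CBW 24 h replicate 2, at 1.29 and 1.28 (adjusted p = 0.0381 and 0.0336).

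The third expansin gene, named expansin-like protein (Ghi.6749.1.S1_s_at, matched to Gorai.002G203200.1), had values at 12 and 48 h. At 12 h the controls had 25.7, 45.1 and 28.6 and the damaged leaves 74.9, 70.6 and 89.7. The damaged arrays lay above the controls, with a difference on the log2 scale of 1.28 (SE 0.21, adjusted p = 0.00062 from limma), but all 6 values were below the 20th percentile of their arrays, and no difference remained (-0.019) with values raised to it. At 48 h the controls had 30.1, 23.0 and 21.2 and the damaged leaves 111, 96.0 and 88.7, a log2 difference of 2.00, which turned to -0.00019 in the same setting.

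**Figure D2:**
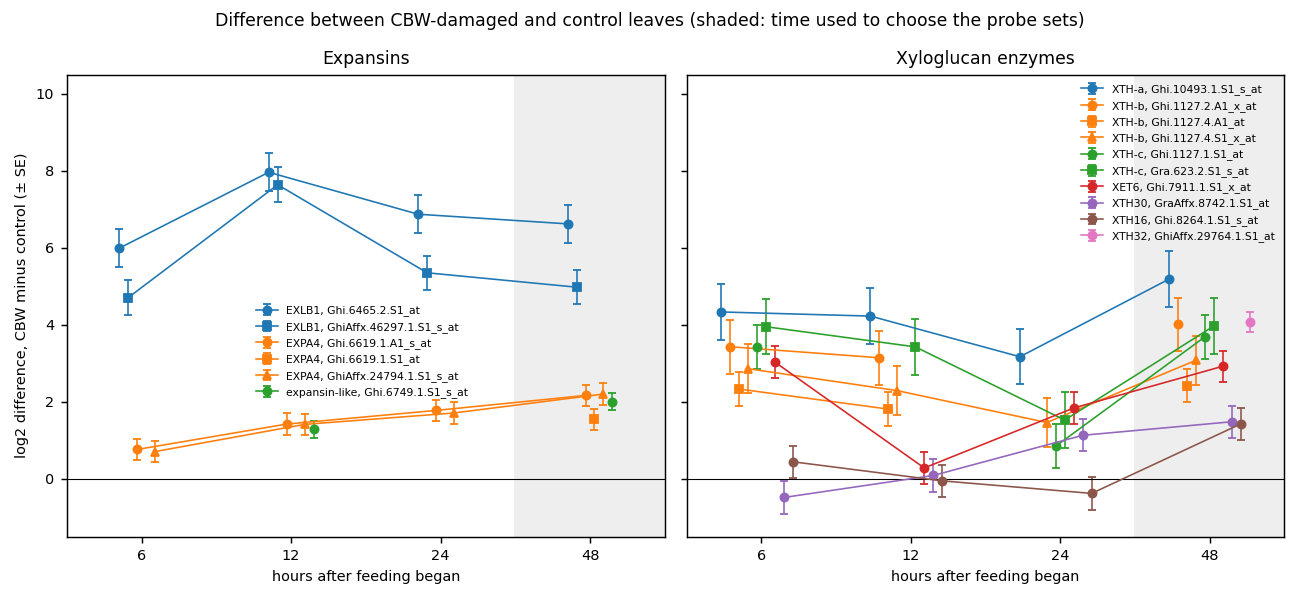
Log2 difference between CBW-damaged and control leaves (mean of 3 arrays each, bars 1 SE from limma) against hours after feeding began, for expansins (left) and xyloglucan enzymes (right); the shaded time took part in choosing the probe sets. EXLB1 peaks at 12 h, EXPA4 goes from 0.76 to 1.78 between 6 and 24 h for Ghi.6619.1.A1_s_at, and XET6 drops to 0.28 at 12 h.

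Of the 10 xyloglucan probe sets, 6 share the name xyloglucan endotransglucosylase/hydrolase family protein and match 3 genes, called XTH-a (Gorai.009G337400.1), XTH-b (Gorai.009G006400.1) and XTH-c (Gorai.005G113400.1) here. All 6 probe sets were called higher at 6 h. XTH-a, read by Ghi.10493.1.S1_s_at, had 94.1, 89.2 and 30.7 in controls at 6 h and 604, 1092 and 3203 in damaged leaves. At 12 h it had 48.2, 128 and 33.6 in controls and 1484, 831 and 1102 in damaged leaves. At 24 h the controls had 142, 64.1 and 11.5 and the damaged leaves 334, 465 and 492. The arrays stayed apart at each of these times, although the controls at 24 h spread widely. XTH-a thus differed by 4.33, 4.23 and 3.17 on the log2 scale (SE 0.72, adjusted p = 4.66e-05, 0.000109 and 0.0013 from limma), and at 48 h the difference was 5.19, with 32.3, 33.1 and 50.2 in controls and 1510, 1207 and 1433 in damaged leaves.

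XTH-c showed a strong rise at 6 h and a smaller difference at 24 h that was imprecise and not called. Gra.623.2.S1_s_at had 66.9, 49.0 and 45.4 in controls at 6 h and 596, 411 and 2245 in damaged leaves. At 12 h it had 33.1, 138 and 22.7 in controls and 1068, 310 and 390 in damaged leaves. At 24 h the controls had 152, 70.7 and 21.2 and the damaged leaves 120, 208 and 218, so that control replicate 1 stood above a damaged array and the groups overlapped. The log2 differences were 3.95 at 6 h and 3.43 at 12 h (SE 0.72, adjusted p = 0.000121 and 0.000785 from limma) and 1.53 at 24 h (adjusted p = 0.0876, 95% confidence interval 0.016 to 3.04). At 48 h the controls had 26.5, 55.1 and 27.5 and the damaged leaves 582, 479 and 557, a log2 difference of 3.97.

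The second XTH-c probe set, Ghi.1127.1.S1_at, lay below the 20th percentile on most arrays. It had 15.8, 9.36 and 8.25 in controls and 104, 74.5 and 190 in damaged leaves at 6 h, a difference of 3.41 on the log2 scale (SE 0.57, adjusted p = 0.000117 from limma), which became 0.21 (adjusted p = 0.274) with low values raised to that percentile. At 24 h it had 104, 35.6 and 12.3 in controls and 44.9, 70.0 and 83.9 in damaged leaves. Control replicate 1 was the brightest of these 6 arrays, and the log2 difference was 0.85 (adjusted p = 0.238). The response at 24 h differed from that at 6 h by -2.57 (SE 0.81, adjusted p = 0.0404), a call made for 7.26% of all probe sets and 6.87% of the other rows of the copied table. Controls were higher at 24 h than at 6 h by 1.74 (SE 0.57, adjusted p = 0.0409), a call made for 11.8% of all probe sets, although their arrays overlapped. Higher calls made up 53.3% of all calls in this control comparison, or 42.6% after quantile normalization. The response call was lost in 8 of 12 fits that left out an array, with adjusted p between 0.0547 and 0.0977, and held only without control 6 h replicate 1, CBW 6 h replicate 1 or 2 or control 24 h replicate 3. The control call was lost without control 6 h replicate 2 or 3 or control 24 h replicate 1 or 2, with adjusted p between 0.0762 and 0.192. Without control 24 h replicate 1 the values were -1.80 for the response and 0.97 for the controls. Both calls were lost without the 48 h arrays (adjusted p = 0.0859 and 0.0872) and with low values raised to the 20th percentile, under which all 6 arrays lay at 24 h. For Gra.623.2.S1_s_at the change of response from 6 to 24 h was -2.42 (SE 1.02, adjusted p = 0.1), or -3.19 (adjusted p = 0.0369) without control 24 h replicate 3. With low values raised to the 20th percentile it was called (-2.42, adjusted p = 0.0161 from limma). In that setting alone Ghi.1127.4.S1_x_at of XTH-b (-2.16, adjusted p = 0.0435) and Ghi.10493.1.S1_s_at of XTH-a (-1.76, adjusted p = 0.0252) were called too. There 21.1% of all probe sets were called for this change, in either direction.

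XTH-b was read by 3 probe sets, of which Ghi.1127.4.S1_x_at alone had values at 24 h. Ghi.1127.4.S1_x_at had 180, 90.7 and 151 in controls at 6 h and 690, 517 and 2645 in damaged leaves. At 12 h it had 84.3, 211 and 53.6 in controls and 1121, 294 and 337 in damaged leaves. At 24 h it had 129, 70.8 and 35.6 in controls and 118, 228 and 254 in damaged leaves, with overlap. The log2 differences were 2.86, 2.29 and 1.46 at 6, 12 and 24 h (SE 0.64, adjusted p = 0.000753, 0.00663 and 0.0642 from limma). The 12 h call was lost without CBW 12 h replicate 1 (1.68, adjusted p = 0.0513).

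Ghi.1127.2.A1_x_at had 54.1, 23.0 and 28.4 in controls and 258, 181 and 947 in damaged leaves at 6 h, a difference of 3.43 on the log2 scale (SE 0.70, adjusted p = 0.000607 from limma). It had 9.99, 56.6 and 11.6 against 370, 99.9 and 122 at 12 h, a difference of 3.14 (adjusted p = 0.00195). Ghi.1127.4.A1_at had 33.7, 22.2 and 28.7 against 115, 94.9 and 250 at 6 h, a difference of 2.33 (SE 0.44, adjusted p = 0.00031), and 16.7, 51.3 and 20.7 against 172, 66.7 and 66.7 at 12 h, a difference of 1.81 (adjusted p = 0.00354). Damaged and control arrays stood apart at both times, and neither probe set had values at 24 h. Raised to the 20th percentile, Ghi.1127.2.A1_x_at lost its call at 12 h and Ghi.1127.4.A1_at its calls at 6 and 12 h. At 48 h the 3 XTH-b probe sets had log2 differences of 3.08 for Ghi.1127.4.S1_x_at, 4.01 for Ghi.1127.2.A1_x_at and 2.42 for Ghi.1127.4.A1_at. Ghi.1127.1.S1_at and the XTH-b probe sets share a number in their names yet match both XTH-b and XTH-c, and those ending in x_at hold probes shared with other sequences, so signal of near-identical gene copies cannot be assigned to a gene with certainty.

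In damaged leaves the level itself fell between 6 and 24 h by 2.22 for Gra.623.2.S1_s_at (SE 0.72, adjusted p = 0.0264 from limma) and by 2.37 for Ghi.1127.4.S1_x_at (SE 0.64, adjusted p = 0.00886), with no overlap of the arrays. Such a fall was called for 12.3% of all probe sets. XTH-a had -1.60 (adjusted p = 0.103) and Ghi.1127.1.S1_at had -0.83 (adjusted p = 0.299). Without CBW 6 h replicate 3 the differences were -1.49 (adjusted p = 0.161) for Gra.623.2.S1_s_at and -1.66 (adjusted p = 0.066) for Ghi.1127.4.S1_x_at. The call of Gra.623.2.S1_s_at was also lost without CBW 24 h replicate 1 or 2 (adjusted p = 0.0879 and 0.0513) or without the 48 h arrays (0.0511).

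At 6, 12 and 24 h these probe sets tended to share their highest and lowest arrays within a group. The XTH-b and XTH-c probe sets may read shared signal, so the counts below do not stand for separate observations. No share of all probe sets with the same order was computed. CBW 6 h replicate 3 was the highest of its group in 6 of 6 probe sets of XTH-a, XTH-b and XTH-c, with a median deviation of 1.37 from the group mean on the log2 scale, and control 6 h replicate 1 was the highest of its own group in 6 of 6 (0.49). Control 12 h replicate 2 was the highest in 5 of 5 (1.12), CBW 12 h replicate 1 in 5 of 5 (1.08) and control 24 h replicate 1 in 4 of 4 (1.43), while control 24 h replicate 3 was the lowest in 4 of 4 (-1.53). Control arrays at 48 h were split, with replicate 2 the highest in 4 of 6 probe sets and replicate 3 the highest in 2 and the lowest in 3. EXPA4 shared this order in some groups and not in others. Its 2 probe sets were lowest on CBW 6 h replicate 3 (-0.44) and highest on CBW 24 h replicate 1 (0.51), where the 4 measured probe sets of XTH-a, XTH-b and XTH-c were lowest (-0.53). At 12 h, in contrast, control replicate 2 had the highest median deviation and CBW replicate 2 the lowest in EXPA4 (0.21 and -0.22) as in these XTH probe sets (1.12 and -0.71). Without control 24 h replicate 1 the 24 h differences were 2.18 for Gra.623.2.S1_s_at, 1.92 for Ghi.1127.4.S1_x_at and 1.62 for Ghi.1127.1.S1_at, and all 3 passed the test (adjusted p = 0.0242, 0.0304 and 0.0119 from limma). Without CBW 24 h replicate 1 the call was gained by Ghi.1127.4.S1_x_at as well (1.81, adjusted p = 0.0481). With all arrays kept and low values raised to the 20th percentile, the 24 h differences were smaller and not called. They were 0.43 for Gra.623.2.S1_s_at, 0.62 for Ghi.1127.4.S1_x_at and -0.13 for Ghi.1127.1.S1_at (adjusted p = 0.452, 0.326 and 0.523 from limma).

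**Figure D3:**
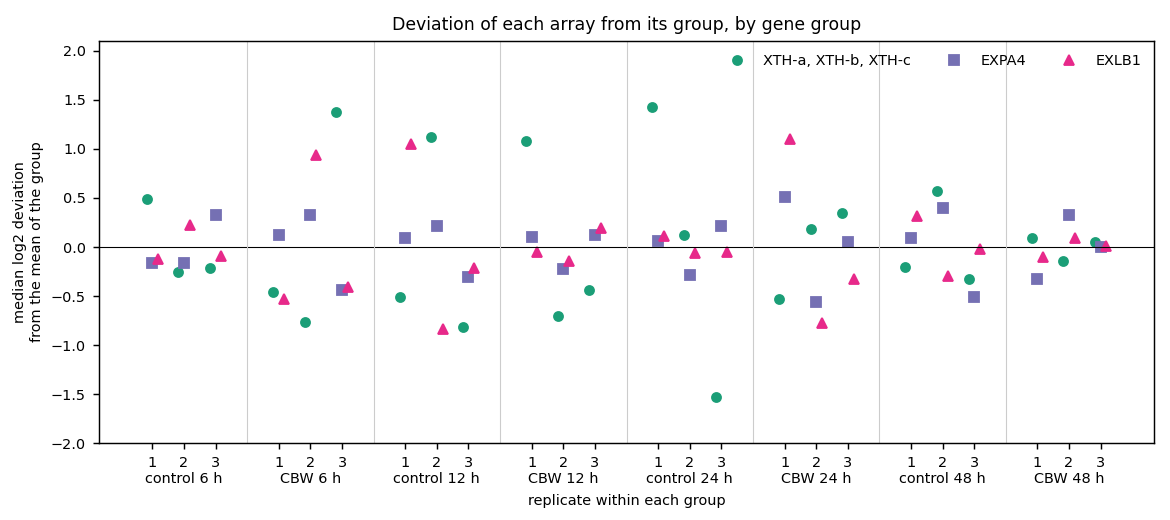
Median log2 deviation of each array from the mean of its own group, for the probe sets of XTH-a, XTH-b and XTH-c (circles), EXPA4 (squares) and EXLB1 (triangles), with the 3 replicates of each of the 8 groups along the axis. The circles reach 1.37 on CBW 6 h replicate 3 and 1.43 on control 24 h replicate 1, where the squares stand at -0.44 and 0.06.

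Xyloglucan endotransglycosylase 6 (XET6, Ghi.7911.1.S1_x_at, matched to Gorai.004G031100.1 and given as LOC107926340 by the platform annotation) passed the test at 6 and 24 h but not at 12 h. At 6 h the controls had 448, 460 and 455 and the damaged leaves 2644, 3178 and 6124. At 12 h the controls had 2296, 3762 and 1771 and the damaged leaves 3093, 2686 and 3307, so the groups overlapped. At 24 h the controls had 1201, 1050 and 367 and the damaged leaves 2352, 3115 and 2891. The log2 differences were 3.03 at 6 h (SE 0.40, adjusted p = 4.3e-06 from limma), 0.28 at 12 h (adjusted p = 0.606, 95% confidence interval -0.57 to 1.13) and 1.84 at 24 h (adjusted p = 0.000992). At 48 h the controls had 563, 261 and 709 and the damaged leaves 3859, 3392 and 3489, a log2 difference of 2.93.

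The XET6 response (Ghi.7911.1.S1_x_at) was smaller at 12 h than at 6 h (-2.75 on the log2 scale, SE 0.57, adjusted p = 0.0017 from limma), a call made for 12.8% of all probe sets and 23.4% of the other rows of the copied table. In control leaves XET6 was higher at 12 h than at 6 h by 2.45 (SE 0.40, adjusted p = 7.35e-05), a call made for 19.9% of all probe sets, and then lower at 24 h than at 12 h by 1.68 (adjusted p = 0.00286). No array left out ended any of these 3 calls. The damaged leaves, by contrast, kept within 2352 to 6124 over all 12 arrays, and their level at 24 h differed from that at 6 h by -0.43 (adjusted p = 0.459, 95% confidence interval -1.27 to 0.42). The response at 24 h against 12 h was 1.56 (adjusted p = 0.0847) and passed the test without control 24 h replicate 1 (1.87, adjusted p = 0.0497), and that at 24 h against 6 h was -1.19 (adjusted p = 0.148) and passed it without control 24 h replicate 3 (-1.73, adjusted p = 0.0283).

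XTH30 (GraAffx.8742.1.S1_at, Gorai.008G223600.1) and XTH16 (Ghi.8264.1.S1_s_at, Gorai.005G025000.1), further members of the XTH family, showed no called difference at 6 or 12 h. XTH30 had 146, 341 and 268 in controls and 218, 120 and 186 in damaged leaves at 6 h, a difference of -0.49 on the log2 scale (SE 0.42, adjusted p = 0.321 from limma). At 12 h it had 151, 112 and 143 against 232, 118 and 106, a difference of 0.086 (adjusted p = 0.887). At 24 h it had 119, 230 and 79.3 against 190, 349 and 343, a difference of 1.13 (adjusted p = 0.0315), with overlap of the arrays. This call was lost without control 24 h replicate 1 or 3 or CBW 24 h replicate 2 or 3, with adjusted p between 0.0779 and 0.168. At 48 h it had 127, 70.6 and 164 against 243, 393 and 335, a difference of 1.48. The change of its response from 6 to 24 h, 1.61 (adjusted p = 0.0631), passed the test in 4 of the 12 fits that left out an array.

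XTH16 (Ghi.8264.1.S1_s_at) lay above the 20th percentile on all 24 arrays. It had 3587, 2437 and 4744 in controls and 2670, 4569 and 8529 in damaged leaves at 6 h, a difference of 0.44 on the log2 scale (SE 0.42, adjusted p = 0.37 from limma). At 12 h it had 959, 3639 and 1900 against 2262, 1299 and 2017, a difference of -0.054 (adjusted p = 0.93). At 24 h it had 7889, 7489 and 5546 against 3960, 6007 and 6256, a difference of -0.38 (adjusted p = 0.478, 95% confidence interval -1.26 to 0.50). The groups overlapped at these 3 times, and separated at 48 h, when controls had 2853, 3390 and 4962 and damaged leaves 10092, 9322 and 9957, a difference of 1.43 and the smallest of the 16 at that time. In controls XTH16 was higher at 24 h than at 12 h by 1.88 (adjusted p = 0.00163), a call made for 20.2% of all probe sets.

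XTH32 (GhiAffx.29764.1.S1_at, Gorai.003G145700.1) had values at 48 h alone. The controls had 3.67, 4.46 and 7.29 and the damaged leaves 71.4, 93.8 and 83.9, a log2 difference of 4.07. All 6 values lay below the 20th percentile of their arrays, and the difference was -0.00019 with values raised to it, so its size rests on the lowest intensities of the arrays.

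Other wall genes named in the copied table were counted beside these, again from rows kept for a rise at 48 h. Of 29 such probe sets, 16 of 27 measured were called higher and 2 lower at 6 h, 24 of 29 higher and 1 lower at 12 h, and 20 of 28 higher at 24 h. Higher calls made up 26.1%, 19.9% and 20% of all probe sets and 83.3%, 75.3% and 93.5% of the other rows of the copied table at these times, and the shares given by each wall list below are to be read against these. Lower calls made up 36.5% and 24.7% of all probe sets and 1.15% and 0.519% of the other rows at 6 and 12 h. The share of the 29 called higher lay below that of the other rows at 6 and 24 h. Their median log2 differences were 1.18, 1.80 and 2.16, and 2.82 at 48 h. No name in the copy held the words searched for pectate lyases, endoglucanases or arabinogalactan proteins.

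Pectin-related genes were among those called from 6 h on. All 3 measured probe sets with pectin methylesterase in the name were called higher at 6 h, and at 12 and 24 h this held for 4 of 4 and 2 of 3, or for 3 of 3, 2 of 4 and 1 of 3 at 6, 12 and 24 h with low values raised to the 20th percentile. This floor was extended to the other wall lists after seeing the data. Of the 4, 3 are named for the invertase and pectin methylesterase inhibitor superfamily. That name alone does not settle whether their products restrain these enzymes. The other is pectin methylesterase 5, which removes methyl groups from pectin. The largest rise of this list at 6 h was that of Ghi.3458.1.A1_at, of the inhibitor superfamily, with 34.9, 79.1 and 66.2 in controls and 1201, 2005 and 1418 in damaged leaves at 6 h, a difference of 4.73 on the log2 scale (SE 0.50, adjusted p = 2.88e-07 from limma). All 3 controls lay below the 20th percentile, and with the floor the difference was 3.73, still the largest of the list. Polygalacturonase-inhibiting protein (GbaAffx.197.1.S1_s_at), of a family that blocks pectin-degrading enzymes of fungi and insects, rose by 3.16, 2.52 and 3.53 at the 3 tested times (SE 0.21, largest adjusted p = 4.05e-08).

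Among makers of wall polysaccharides, 3 of 3 cellulose synthase-like probe sets were called higher at 6 h, then 1 and 2 of the 3 at 12 and 24 h, numbers too small to set against the shares of the other rows. Cellulose synthase-like D3 (Ghi.2405.1.S1_at) rose by 2.26 and 2.19 at 6 and 24 h (SE 0.34, adjusted p = 1.86e-05 and 4.15e-05 from limma). Both other probe sets, named after their values were seen, read cellulose synthase-like C12, of a family that makes the glucan backbone of xyloglucan. At 6 h they rose by 1.46 for Ghi.1512.1.S1_at (adjusted p = 0.0114) and 1.15 for Ghi.3452.1.S1_s_at (adjusted p = 0.0056). COBRA-like protein 7 (Ghi.1811.1.S1_s_at), of a family of anchored proteins tied to cellulose deposition, rose by 2.30, 1.80 and 1.45 at 6, 12 and 24 h.

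Structural wall proteins, found by the words extensin or proline-rich, were called higher for 8 of 15, 13 of 16 and 14 of 16 probe sets at 6, 12 and 24 h, and with the floor for 8, 11 and 13. The share at 6 h lay below that of the other rows of the copied table. The largest rise at 6 h was that of the hydroxyproline-rich glycoprotein Ghi.9405.1.A1_at, by 4.48 (SE 0.31, adjusted p = 1.57e-09 from limma), or 2.99 with the floor, below which all 3 controls lay. The largest at 24 h was that of proline-rich protein 2, Ghi.680.1.S1_s_at, by 3.71, but all its controls lay below the 20th percentile and the call was lost with the floor (0.56, adjusted p = 0.0518). The pollen Ole e 1 allergen and extensin family member Ghi.7872.1.S1_s_at fell by 1.97 at 6 h (adjusted p = 2.01e-05) and by 0.81 at 12 h (adjusted p = 0.0368). Not all of the 16 are wall proteins by function, since 4 carry the late embryogenesis abundant name and 1 is a receptor kinase.

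Beta-galactosidases, a family that trims galactose from wall polysaccharides, xyloglucan among them, were called higher at 12 h, in 4 of 4 probe sets of 3 genes, and in none at 6 or 24 h. At 48 h, the time used in choosing them, all 4 stood above the controls again, with a median log2 difference of 2.47. Gra.2459.1.A1_s_at had 303, 292 and 581 in controls and 133, 318 and 83.8 in damaged leaves at 6 h, and 102, 191 and 111 against 1997, 1368 and 2069 at 12 h. At 24 h its controls had risen to 1942, 2657 and 600, and the damaged leaves had 772, 1284 and 895. Its log2 differences were -1.29 at 6 h (SE 0.50, adjusted p = 0.0311 from limma), 3.78 at 12 h (adjusted p = 7.31e-06) and -0.60 at 24 h (adjusted p = 0.333). The response at 12 h exceeded that at 6 h for all 4 probe sets, by 2.00 to 5.07 with the largest adjusted p at 0.0137, a call made for 17.7% of all probe sets and 14.1% of the other rows. It was called smaller at 24 h than at 12 h in 3 of 4, against 6.19% and 6.2%. These response comparisons were not planned for the wall lists and were not checked with the floor or with arrays left out. All 3 controls of Gra.2314.1.S1_at at 12 h lay below the 20th percentile. With the floor all 4 probe sets kept their call at 12 h itself.

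**Figure D4:**
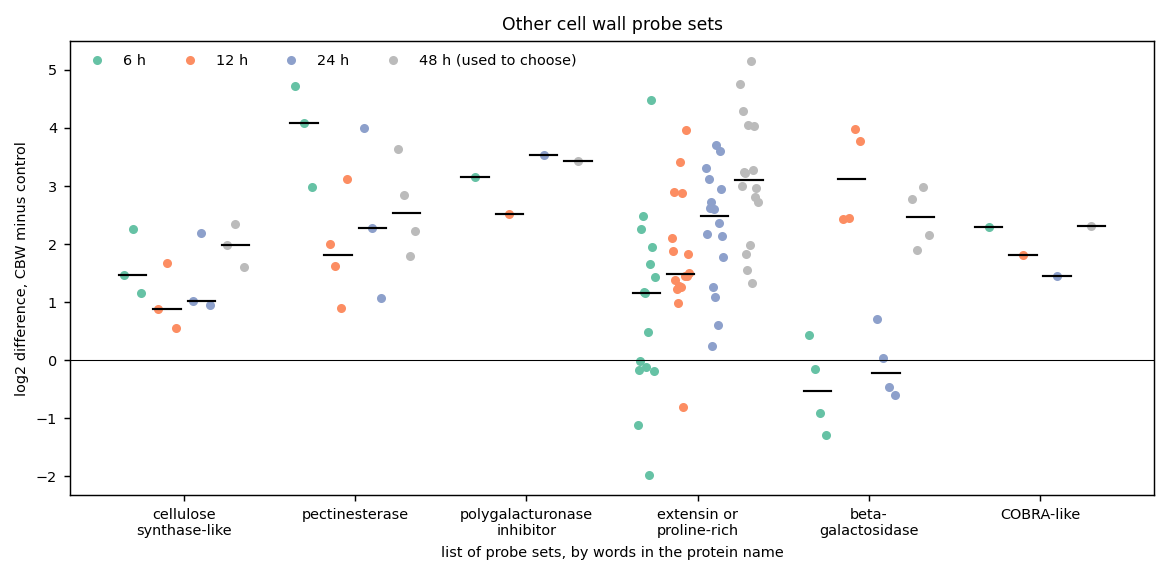
Log2 difference between CBW-damaged and control leaves for the other wall probe sets, by words in the protein name and by time; points are probe sets, black bars are medians, and 48 h (grey) took part in choosing all of them. Beta-galactosidases lie between -1.29 and 0.43 at 6 h and between 2.43 and 3.98 at 12 h.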

How the data were processed

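Leaf RNA had been hybridised to the Affymetrix Cotton GeneChip, 1 sample per array. The authors computed the deposited signal intensities with the MAS5 algorithm, whose version and scaling target are not given in the sources used here, nor is the rule by which a probe set lacks values at a time. The sample labels and the study differ on how many larvae were used and how plants were bagged. Samples were grouped by the treatment and time in the labels. Nothing in the labels says that arrays of a group came from separate experiments, so p-values measure the spread between these samples only.

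Intensities were taken to log2 with no pseudocount and fitted with limma 3.58.1 in R 4.3.3 as 8 group means over all 24 arrays, with 16 residual degrees of freedom for probe sets measured at all times. P-values were adjusted over all probe sets with values in a comparison, 14627 at 6 h, 14403 at 12 h and 14570 at 24 h, and called at 0.05. Intervals are 95%. The fit was tested on simulated data. Precision is limited by the 3 arrays per group.

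Protein names and G. raimondii matches were read from the study's name table, which is held here only as a shortened copy of 1028 rows. Its ratios and q-values, like the authors' other comparisons, were not used. Design choices named all probe sets chosen by name, and for the other wall lists, also taken from names in that copy since the annotation tables used here hold no gene titles, the largest called rise and fall of a list at 6 or 24 h. The probe sets and lists were chosen with earlier results of these data known. Alternatives were quantile normalization, median centring, a floor at the 20th percentile of each array, log2(intensity + 32), bright probe sets only, fewer times in the fit, a trended robust prior, a replicate block, each array left out and, added after seeing the data, CBW 48 h replicate 3 kept out of the pooled spread and the floor applied to the other wall lists. No sequences are printed, as none were used here.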

Additional observations from a re-analysis of the deposited data

Results flagged for a closer look

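In 5 cases the response to CBW feeding differed between times by a test of the difference itself (limma, adjusted p of 0.05 or less). For expansin-like B1 the response was larger at 12 h than at 6 h by 1.97 on the log2 scale with Ghi.6465.2.S1_at and by 2.93 with GhiAffx.46297.1.S1_s_at, the second of which held with any array left out. With GhiAffx.46297.1.S1_s_at it then changed by -2.29 from 12 to 24 h. For xyloglucan endotransglycosylase 6 (Ghi.7911.1.S1_x_at) the response at 12 h differed from that at 6 h by -2.75, with a control level 2.45 higher at 12 h. For XTH-c (Ghi.1127.1.S1_at) the response at 24 h differed from that at 6 h by -2.57, with a control level 1.74 higher at 24 h, and most fits that left out an array lost these calls.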

How the results depend on the processing

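The counts called higher at 6, 12 and 24 h (11, 10 and 7) kept within 1.5 times under every alternative but the fit on probe sets above the median level, which left 3 of the 16 and called 2, 1 and 2, with a 48 h median of 2.17, no called response difference (0 at 12 h against 6 h, higher, 0 at 24 h against 12 h and 0 at 24 h against 6 h, lower), 0 higher and 1 lower between controls at 24 and 6 h, and 0 lower between damaged leaves at those times. With low values raised to the 20th percentile, the higher calls of Ghi.1127.1.S1_at and Ghi.1127.4.A1_at at 6 h were lost. So were those of Ghi.1127.2.A1_x_at, Ghi.1127.4.A1_at and Ghi.6749.1.S1_s_at at 12 h, and none was lost at 24 h. In this setting the 48 h median was 1.76. The response was called lower for 2 probe sets at 24 h against 12 h and 3 at 24 h against 6 h, and no control rise from 6 to 24 h was called (0). The sign turned there for Ghi.6749.1.S1_s_at at 12 h (-0.019) and 48 h (-0.00019), GhiAffx.29764.1.S1_at at 48 h (-0.00019), Ghi.1127.1.S1_at at 24 h (-0.13) and the response of GhiAffx.24794.1.S1_s_at at 24 h against 12 h (-0.093), where values below the percentile are equal by construction. With log2(intensity + 32) the 48 h median was 2.19, 2 responses were called lower at 24 h against 6 h and 0 control rises were called between 6 and 24 h. Without the 48 h arrays, as with the arrays of the times compared alone, 1 response was called higher at 12 h against 6 h, 0 lower at 24 h against 12 h, 0 lower at 24 h against 6 h and 0 control rises from 6 to 24 h, and without the 48 h arrays 1 fall in damaged leaves was called between 6 and 24 h. Keeping CBW 48 h replicate 3 out of the pooled spread, added after seeing the data, left 0 responses lower and 0 control rises at 24 h against 6 h. With arrays centred on their median, 1 response was called higher at 12 h against 6 h. Quantile normalization and the trended prior moved no count of calls by over 1.5 times.

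The replicate block was tried although equal numbers were not taken to pair the arrays, since not every pair correlated above 0.1: deviations of same-numbered CBW and control arrays correlated at -0.165 to 0.201 at 6 h, 0.199 to 0.516 at 12 h, 0.0917 to 0.49 at 24 h and -0.0627 to -0.021 at 48 h. With the block, 0 responses were called lower at 24 h against 6 h and 0 control rises from 6 to 24 h, both calls lost being those of Ghi.1127.1.S1_at (adjusted p = 0.0543 and 0.055), and no other call changed.

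Leaving out each array in turn gave 1 to 2 responses called higher and 1 lower at 12 h against 6 h, 0 to 1 higher and 0 to 2 lower at 24 h against 12 h, and 0 to 2 higher and 0 to 3 lower at 24 h against 6 h. Between controls it gave 0 to 1 lower at 12 h against 6 h and 0 to 2 higher at 24 h against 6 h, and between damaged leaves 0 to 3 lower at 24 h against 6 h. Among values not called, the sign turned for the 12 h against 6 h response of Ghi.10493.1.S1_s_at (-0.65 to 0.55), Ghi.1127.2.A1_x_at (-0.87 to 0.51), Gra.623.2.S1_s_at (-1.06 to 0.25) and Ghi.1127.4.S1_x_at (-1.18 to 0.14), the 24 h against 12 h response of Ghi.8264.1.S1_s_at (-0.80 to 0.16), and the 12 h differences of Ghi.8264.1.S1_s_at (-0.54 to 0.42) and GraAffx.8742.1.S1_at (-0.26 to 0.30). Apart from the constructions named, the cause of these changes was not tested. Values below the 20th percentile of an array, 106 to 121, limit the fold changes of EXLB1, XTH-a, XTH-b, XTH-c, XTH32 and the expansin-like gene, among others. They also limit those of EXPA4 at 24 h and, for Ghi.6619.1.S1_at, at 48 h. Among the other wall probe sets, Ghi.3458.1.A1_at, Ghi.9405.1.A1_at, Ghi.680.1.S1_s_at, Ghi.2405.1.S1_at and Gra.2314.1.S1_at are examples.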
